A study of Homo sapiens and Mus musculus with 20 samples.

Results

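CpG-poor promoters were taken from the open chromatin of SW480, an established human colorectal adenocarcinoma line, as mapped by ATAC-seq, in which Tn5 transposase cuts accessible DNA. The peak intervals of the 12 SW480 libraries were merged where they overlapped, yielding 252173 regions, and 167303 of them were seen in at least 2 libraries. Of these, 24173 lay within 1 kb of the start of a protein-coding transcript in GENCODE 44 (GRCh38). A region was called a CpG-poor promoter when the 500 bp centred on its nearest start had an observed/expected CpG ratio below 0.5; the ratio compares the CpG dinucleotides counted with the number that the C and G content alone would give. This rule kept 6890 regions of 4532 genes, or 28.5% of the promoter regions and 4.12% of all regions with a peak in 2 or more libraries. The other 17283 promoter regions serve below as the comparison and are called CpG-richer promoters.

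The cells were cultured either with 10 mM sodium propionate (NaPr) or with 1 mM sodium butyrate (NaBu) for 12 to 16 h, and each compound had its own 3 treated and 3 untreated (0 mM) libraries made by Omni-ATAC from 50000 viable cells. The study asked how these short-chain fatty acids change chromatin accessibility in CRC cells. All 12 libraries come from 1 unmodified cell line, the doses of the 2 compounds differ, and nothing states that replicates came from separate cultures, so the p-values measure the spread between these libraries, which may be technical. Each library is a list of peaks with no read totals. The background pileup recovered from the lists, which is proportional to depth, was 0.936 to 2.35 tags in the NaPr experiment and 2.11 to 3.03 tags in the NaBu experiment, lowest in replicate 1 of both NaPr groups.

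Most vertebrate genomic DNA has lost CpG dinucleotides because methylated cytosine mutates readily, while CpG islands at the starts of broadly used genes escaped this loss. CpG-poor promoters lack an island. They are known mainly from genes used in particular tissues, such as those of epithelial barriers, digestion, secretion and immune defence, and many are alternative starts inside genes that also have an island promoter. Butyrate, and less strongly propionate, inhibit histone deacetylases, and gut bacteria release both into the colon.

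The sequences just upstream of the start show how few CpGs these promoters hold. They are given for some of the regions with the largest changes in each experiment and for regions that changed alike with both compounds, where at least 100 of the 150 bases before the start lay outside annotated UTRs. They are written 5′ to 3′ on the gene's strand from GRCh38, and capitals mark CpG dinucleotides. HBP1, a canonical start with a ratio of 0.799, stands last for comparison.
PGLYRP2, chr19:15498957-15499106, minus strand: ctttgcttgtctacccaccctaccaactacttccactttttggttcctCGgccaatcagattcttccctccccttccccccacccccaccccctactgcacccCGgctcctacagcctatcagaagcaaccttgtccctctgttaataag
C15orf39, chr15:75198716-75198865, plus strand: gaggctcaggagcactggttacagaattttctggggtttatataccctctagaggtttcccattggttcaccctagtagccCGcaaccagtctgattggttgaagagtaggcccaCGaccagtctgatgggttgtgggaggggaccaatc
ENSG00000268655, chr19:49020550-49020699, minus strand: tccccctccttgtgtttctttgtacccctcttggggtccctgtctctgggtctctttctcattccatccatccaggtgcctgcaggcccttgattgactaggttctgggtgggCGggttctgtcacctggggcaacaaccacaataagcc
SOGA1, chr20:36859874-36860023, minus strand: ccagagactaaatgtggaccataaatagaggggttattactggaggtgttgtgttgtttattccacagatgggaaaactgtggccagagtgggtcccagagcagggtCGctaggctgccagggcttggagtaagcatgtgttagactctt
NLRX1, chr11:119168038-119168187, plus strand: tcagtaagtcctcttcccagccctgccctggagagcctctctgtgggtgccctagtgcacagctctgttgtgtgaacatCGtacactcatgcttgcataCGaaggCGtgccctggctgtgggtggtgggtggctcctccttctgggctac
TCP11X2, chrX:102471843-102471962, minus strand: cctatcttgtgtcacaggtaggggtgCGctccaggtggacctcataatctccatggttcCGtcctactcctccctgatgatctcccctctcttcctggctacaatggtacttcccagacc
IQSEC1, chr3:13015701-13015850, minus strand: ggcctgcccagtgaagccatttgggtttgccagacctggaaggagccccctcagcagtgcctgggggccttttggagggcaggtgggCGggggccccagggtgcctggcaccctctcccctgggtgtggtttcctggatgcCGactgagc
ACVR1, chr2:157838328-157838428, minus strand: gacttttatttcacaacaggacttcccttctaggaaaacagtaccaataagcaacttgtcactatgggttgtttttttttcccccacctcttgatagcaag
CHRNA3, chr15:78619279-78619428, minus strand: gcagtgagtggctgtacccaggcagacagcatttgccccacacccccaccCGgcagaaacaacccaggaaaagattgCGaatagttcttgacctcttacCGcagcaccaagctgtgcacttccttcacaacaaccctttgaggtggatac
HBP1, chr7:107168853-107168960, plus strand: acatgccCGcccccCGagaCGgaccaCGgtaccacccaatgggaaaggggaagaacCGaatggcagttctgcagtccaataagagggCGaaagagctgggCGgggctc
The stretch before ACVR1 holds no CpG, those before ENSG00000268655 and SOGA1 hold 1 each, and the 108 bases before HBP1 hold 7. Over the 500 bp around the start, the count was 2 for C15orf39, 4 for PGLYRP2, 8 for ACVR1 and 34 for HBP1.

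The median CpG count of the 500 bp was 9 at CpG-poor against 47 at CpG-richer promoters, and 39 regions had no CpG there. This follows from the rule, since the ratio uses the same count. The CpG-poor promoters also differed in features that the rule does not use. The median G and C content was 54.4% against 68.6%. The regions were narrower, with a median width of 668 bp against 1315 bp, and 51.6% lay over the start itself against 73.7%. The median distance from the summit to the start was 344.5 bp against 204 bp, and 32.8% of the CpG-poor regions had their summit within 150 bp of the start against 42.4%. The nearest start was the canonical one of its gene for 24.5% of them against 42.9%. In 55.1% of the CpG-poor regions the gene had another start with a ratio of 0.6 or more, and 8.48% had a start at or above 0.5 within 1 kb. The members are not independent, since 1016 genes had 2 such regions, 490 had 3 or more, and 1873 regions shared their nearest start with another. The limit of 0.5 does not fall in a gap, because 523 members lay between 0.45 and 0.5 and 527 promoter regions lay between 0.5 and 0.55.

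Motif strings were sought on both strands from 250 bases before to 50 after the start. TGACTCA, the AP-1 consensus, was found at 10.2% of CpG-poor promoters, 2.09% of CpG-richer ones and 3.78% of all 78567 protein-coding starts. Among all starts that are CpG-poor, with or without a region, the share was 6.64%. TATAAA, the TATA box, was found at 11.9% against 4.77%, and in sense between 45 and 15 bases before the start at 2.53% against 1.48%. Among all CpG-poor starts, with or without a region, these shares were 17.95% and 2.83%. The CpG-poor promoters with a region thus held the TATA string less often than CpG-poor starts in general, unlike the AP-1 string. TGACGTCA, the cAMP response element, which contains a CpG, was rarer, at 0.624% against 2.93%. CCAAT was about as common in both, at 31.1% and 32.2%, and occurred 3 times in the window of PGLYRP2 and 4 times in that of C15orf39. Strings with low G and C content are more often met by chance in CpG-poor DNA, and a match does not show that a factor bound there.

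Accessibility at these promoters was weaker and less constant between libraries than at CpG-richer ones. A peak was listed in all 12 libraries for 2468 members (35.8%) against 71.7% of the CpG-richer promoters, and in only 2 or 3 libraries for 22.9% against 9.92%. Each library's regions were put in order of their strongest summit (−log10 p), and a percentile rank of 100 is the strongest of all regions tested in that experiment and 0 means that no peak was listed. The median member had a mean rank of 52.2 in the NaPr experiment and 50.4 in the NaBu experiment, against 88.0 and 83.2 for CpG-richer promoters. The weakest listed peak had a −log10 p of 3.37 to 9.38, depending on the library, so a rank of 0 means only that no peak passed that list's own limit.

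Some regions in this class ranked near the top of all regions tested. By mean rank over the 12 libraries the first was at ENSG00000270249, at 100 in every library to 3 digits, followed by SERPINI1, a neuronal serpin, at 99.8, RAB30, a small GTPase of the Golgi, at 99.8, RBM27, an RNA-binding protein, at 99.8, and PTK6, a tyrosine kinase of gut epithelium, at 99.7. The next were PAX8, a transcription factor of thyroid and kidney (99.6), ERV3-1, an endogenous retroviral envelope gene (99.6), PCCB, a subunit of propionyl-CoA carboxylase, which converts propionyl-CoA (99.5), COPS4, a subunit of the COP9 signalosome (99.5), and SH3TC2, a protein of Schwann cells (99.5). Of these 10, SERPINI1, RAB30, RBM27, PCCB and COPS4 also lay within 1 kb of a start with a ratio of 0.5 or more. None of the 10 was called in either experiment (limma, adjusted p of 0.11 or more), but ranks this near 100 can hardly rise, and when regions were ranked by fold enrichment PAX8 (adjusted p = 0.011), SERPINI1 (0.035) and PTK6 (0.041) were called higher with NaBu, by 8.16, 4.94 and 7.37 points.

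Markers of colon epithelium were checked at their canonical starts. Of 15 such genes, 8 had a peak over the start in all 12 libraries, among them the CpG-poor starts of VIL1, the microvillus protein villin, HNF4A, a transcription factor of gut and liver, and KRT8, a simple-epithelium keratin. CDX1, GPA33, MUC2 and SI had none in any library. Of the markers of other cell types, all 3 hepatocyte genes and the immune genes PTPRC, CD3E and MS4A1 had none, as had 3 of 4 endothelial genes, while CD14, CD68, COL1A2, SYT1 and SNAP25 had a peak in all 12, as 2 of 6 immune, 1 of 6 fibroblast and 2 of 3 neuron genes. The VIL1 region (chr2:218418767-218420433) ranked 96.2, 96.3 and 97.4 in the untreated and 96.3, 96.4 and 97.5 in the treated libraries of the NaBu experiment, and 67.3, 73.9 and 70.5 against 64.4, 71.4 and 78.6 in the NaPr experiment. Treated and untreated ranks of VIL1 overlapped in both experiments. Its ranks in the NaBu experiment can hardly rise, and the alternatives disagreed there. Ranked by fold enrichment it was called higher with NaBu (5.69 points, limma, adjusted p = 0.047). With recovered summit pileup it was called lower, by -0.272 on the log2 scale relative to background (limma, adjusted p = 0.0096) and -0.268 relative to the library median (0.012).

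NaBu changed accessibility at 2147 of the 5366 CpG-poor promoters that could be tested, 40.01%, with 948 higher (17.7%) and 1199 lower (22.3%). A region was tested when it had a peak in 2 or more of the 6 libraries of the experiment, and the change is the difference in mean percentile rank, treated minus untreated, in percentile points, from limma with Benjamini-Hochberg adjusted p below 0.05 over all tested regions. Over all 123730 regions tested the same rule called 36.9%, with 19.7% higher and 17.2% lower. CpG-richer promoters were called higher in 6.12% and lower in 29.7%, and regions away from promoters in 21.98% and 14.96%. Ranks are relative within a library and cannot show a shift common to all regions, and in bulk libraries fewer open cells and less opening per cell cannot be told apart. The CpG-poor promoters lay between those 2 classes in both directions, and no test of the difference between classes was made. Their median change was -0.72 points, against -2.30 at CpG-richer promoters and 0.70 over all regions tested.

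The same comparison can be made on whether a peak was listed at all. With NaBu, 286 CpG-poor promoters (5.33%) were listed in all 3 treated libraries and absent from all untreated ones, beside 6.41% of all regions tested, and 255 (4.75%) had the reverse, beside 3.72%. The number of CpG-poor promoters with a peak was 4450 ± 81.8 in untreated and 4577 ± 36.2 in treated libraries (SD, n = 3 each), with ranges of 4356 to 4505 and 4537 to 4607 that did not overlap. The share of CpG-richer promoters with a peak was 90.3% ± 0.663 in untreated and 83.8% ± 0.469 in treated libraries. The treated lists also held more intervals in all, 126008 to 128955 against 108442 to 120971, again without overlap, and the part of this in the number of CpG-poor promoters with a peak was not tested.

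The direction of the NaBu calls shifted with CpG content within the CpG-poor class itself. Where the ratio was below 0.1, 22.8% of 325 tested regions were higher and 16.3% lower. At 0.1 to 0.2 the shares were 21.2% and 19.5%, at 0.2 to 0.3 they were 17.0% and 22.1%, and at 0.4 to 0.5 they were 14.7% and 25.2%. Beyond the limit the shares moved on in the same directions, to 3.88% and 39.2% at 1.1 to 1.2. Within the class the median mean rank rose with CpG content too, from 44.7 below a ratio of 0.2 to 55.8 at 0.4 to 0.5. Its part in the shift of direction was not tested. Regions over the start and regions beside it were alike, with 18.0% and 17.3% higher and 23.4% and 21.1% lower. Genes with no start at or above 0.6 gave 17.7% higher and 20.6% lower.

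**Figure D1:**
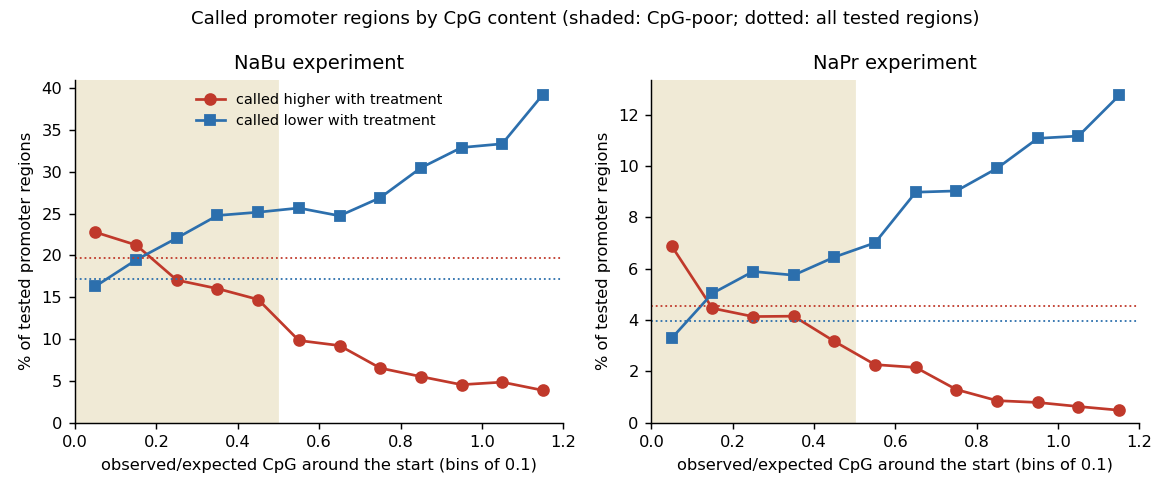
Share of tested promoter regions called higher (circles) or lower (squares) with treatment, in percent, by observed/expected CpG around the nearest start in bins of 0.1, for NaBu (left) and NaPr (right), on different vertical scales. CpG-poor promoters are shaded and dotted lines give the shares over all tested regions; with rising CpG the share called higher falls from 22.8% to 3.88% with NaBu and from 6.89% to 0.490% with NaPr.

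Since CpG-richer promoters rank higher, the shares were also given at like rank. Among regions with a mean rank of 80 to 90 in the NaBu experiment, 18.6% of 591 CpG-poor and 6.55% of 2978 CpG-richer promoters were higher, and 28.8% and 32.5% were lower. At 20 to 40 the shares were 17.5% and 5.80% higher and 28.9% and 58.6% lower. Above 90 they were 20.04% and 6.55% higher and 17.9% and 13.4% lower. At 0 to 20, 40 to 60 and 60 to 80 the shares called lower were 11.5%, 22.8% and 25.4% at CpG-poor promoters. At CpG-richer promoters they were 21.1%, 42.5% and 42.8%. In every band the share called higher was larger at CpG-poor than at CpG-richer promoters. The share called lower was smaller at CpG-poor promoters in every band except that above 90.

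The largest rises with NaBu were at promoters with no listed peak in any untreated library. The region over an alternative start of PGLYRP2 (chr19:15498588-15499828, over a UTR exon), which encodes an amidase that cleaves bacterial peptidoglycan, had no peak in the 3 untreated libraries and ranked 83.9, 86.2 and 85.1 in the treated ones. The groups did not overlap, and the change was 85.1 ± 4.38 points (SE, adjusted p = 0.00026). Its summit stood 15.5, 17.0 and 16.4 times over the local background in the treated libraries. C15orf39 (chr15:75198507-75198989, over a UTR exon at an alternative start) went from no peak to ranks of 78.7, 84.7 and 77.6, a change of 80.3 ± 4.74 points (adjusted p = 0.00026). ENSG00000268655 (chr19:49020447-49020661) ranked 75.1, 70.4 and 75.2 with NaBu, and a region 504 bp from a start of SOGA1 (chr20:36859045-36859369, outside its exons) ranked 65.3, 73.0 and 75.5, both with no peak in untreated libraries.

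The other 6 of the 10 largest rises were likewise absent from all untreated and present in all treated lists. They were GALNT8, of the enzymes that start mucin-type O-glycosylation (71.0 ± 4.72 points), STMN2, a microtubule regulator of neurons (69.0 ± 4.82), ZDHHC18, a palmitoyltransferase (68.7 ± 4.89), ZNF414, a zinc finger protein (67.1 ± 5.36), MTA2, a subunit of the NuRD deacetylase complex (67.0 ± 5.11), and CLK3, a kinase of splicing factors (65.8 ± 4.84). Their adjusted p was between 0.00031 and 0.00038. For 7 of the 10, namely C15orf39, SOGA1, STMN2, ZDHHC18, ZNF414, MTA2 and CLK3, the gene also had another start with a ratio of 0.6 or more. Untreated libraries of the 2 experiments differed at some of these regions, since MTA2 had no peak in the untreated libraries of the NaBu experiment but ranked 66.9, 72.0 and 72.7 in those of the NaPr experiment, and 69.7, 70.4 and 68.7 with NaPr.

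**Figure D2:**
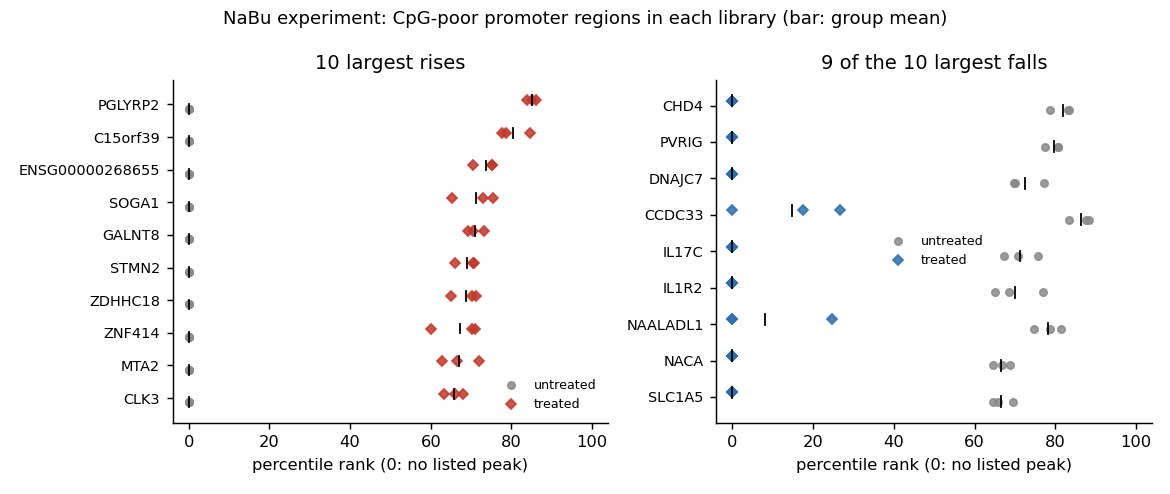
Percentile rank in each library of the NaBu experiment for the 10 CpG-poor promoter regions with the largest rise (left) and 9 of the 10 with the largest fall (right); circles are the 3 untreated and diamonds the 3 treated libraries, bars are group means, and 0 means no listed peak. All 10 rises start from 0 in every untreated library, and CCDC33 and NAALADL1 are the falls that keep a peak in a treated library.

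The largest falls with NaBu mirrored this, and the scale favours falls that end at 0 in the same way. A region over an alternative start of CHD4 (chr12:6605441-6606966, over coding exon and UTR), the ATPase of the NuRD complex, ranked 78.8, 83.5 and 83.2 in untreated libraries and had no peak in the treated ones. Its groups did not overlap, and the change was -81.8 ± 4.57 points (SE, adjusted p = 0.00026). A region 961 bp from the start of PVRIG (chr7:100220910-100221828), an inhibitory receptor of lymphocytes, ranked 80.7, 80.6 and 77.5 without and had no peak with NaBu, and CCDC33 (chr15:74235971-74236616, over its canonical start) fell from 83.3, 88.2 and 87.7 to 17.4, 0 and 26.8. DNAJC7, a co-chaperone, fell by 72.4 points. NAALADL1, a peptidase, fell by 70.1. NACA, a chaperone of nascent chains, fell by 66.7 and SLC1A5, a glutamine transporter, by 66.6.

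IL17C and IL1R2 were also among the 10 largest falls, and both are cytokine-system genes whose starts are all CpG-poor. The IL17C region (chr16:88638304-88638709, over its canonical start), at an epithelial cytokine, ranked 75.8, 67.3 and 70.7 without NaBu and had no peak with it, a change of -71.3 ± 4.99 points (adjusted p = 0.00032). The IL1R2 region (chr2:102001844-102002033), at a decoy receptor for interleukin-1, ranked 65.1, 68.4 and 76.8 and had no peak with NaBu, a change of -70.1 ± 5.31 (adjusted p = 0.00035). The 10 rises and the 9 falls named here stayed below an adjusted p of 0.05 when any 1 library was left out, with a highest value of 0.0057.

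NaPr changed fewer of them, and its calls rested on having all 3 treated libraries. Of 5274 CpG-poor promoters tested, 518 (9.82%) were called, 223 higher (4.23%) and 295 lower (5.59%), beside 8.51% of all 124067 regions, 4.54% higher and 3.97% lower. Leaving out any 1 of the 3 treated libraries left 0 members called by limma, with 1311 to 1338 at an unadjusted p under 0.05 against 1441 with all libraries. Leaving out untreated replicate 1, 2 or 3 left 163, 43 or 26. The direction also depended on the scale: with the recovered summit pileup relative to background, which could be compared at 3118 members, 311 were higher and 44 lower, and relative to the library median 287 were higher and 718 lower, while the first of these scalings moved the median of all regions by 0.21 on the log2 scale and that of the members by 0.13.

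CpG-richer promoters were called higher in 1.14% and lower in 9.88% with NaPr, and regions away from promoters in 5.04% and 3.04%. The CpG-poor promoters again lay between them, and the median change was -1.10 points against -1.21 at CpG-richer promoters and 0.02 over all regions. Below a ratio of 0.1, 6.89% were higher and 3.29% lower, and at 0.4 to 0.5 the shares were 3.17% and 6.46%. With NaPr, 113 members (2.14%) were listed in all 3 treated libraries and absent from all untreated ones, beside 2.95% of all regions, and the reverse at 99 (1.88%), beside 1.50%. The number of members with a peak was 4362 ± 110.2 in untreated and 4366 ± 26.0 in treated libraries (SD, n = 3 each), with overlapping ranges.

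The largest rises with NaPr were at NLRX1 and ZNF385A. The NLRX1 region (chr11:119167879-119168505, over a UTR exon at an alternative start), at a mitochondrial NOD-like receptor, had no peak in untreated libraries and ranked 62.0, 67.3 and 67.3 with NaPr, a change of 65.5 ± 9.23 points (SE, adjusted p = 0.0071). A region 861 bp from a start of ZNF385A (chr12:54383188-54383599), a zinc finger protein, had no peak without and ranked 70.9, 65.9 and 59.6 with NaPr (adjusted p = 0.0075). Treated and untreated ranks did not overlap at either. GCHFR, a feedback regulator of tetrahydrobiopterin synthesis, rose by 59.6 ± 10.5 points, VKORC1, the vitamin K epoxide reductase, by 59.4 ± 9.48, GPRC5C, an orphan receptor, by 57.3 ± 9.71 and TREML4, a myeloid receptor, by 57.1 ± 9.62. TCP11X2, CSRNP1, VEPH1 and RLBP1, the last a carrier of retinaldehyde, rose by 53.5 to 54.1 points.

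**Figure D3:**
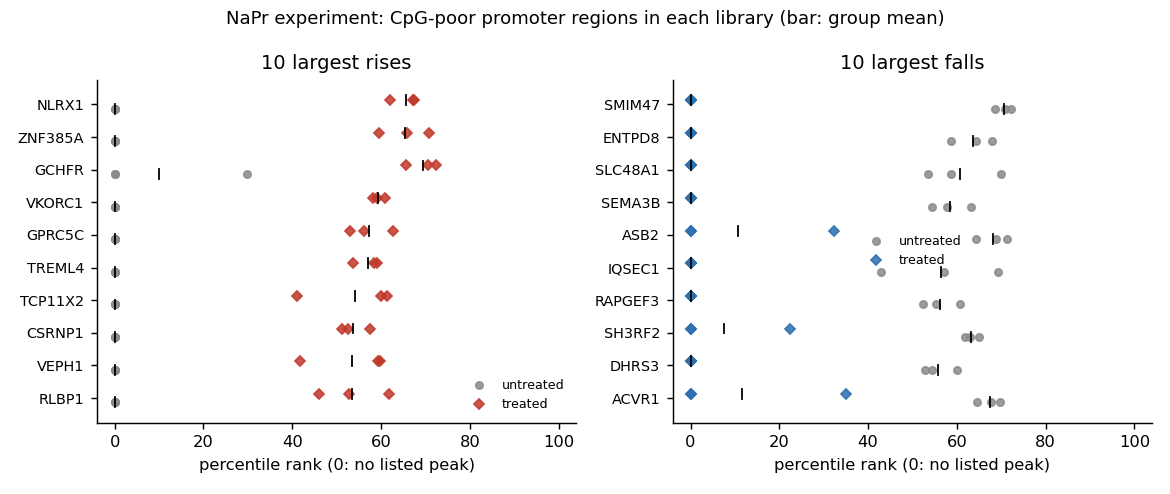
Percentile rank in each library of the NaPr experiment for the 10 CpG-poor promoter regions with the largest rise (left) and the largest fall (right); circles are the 3 untreated and diamonds the 3 treated libraries, bars are group means, and 0 means no listed peak. GCHFR is the rise with a peak in an untreated library, and ASB2, SH3RF2 and ACVR1 are the falls with a peak in a treated library.

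The largest falls with NaPr were at SMIM47, ENTPD8 and SLC48A1. A region 789 bp from a start of SMIM47 (chr19:50791629-50792353) ranked 70.9, 72.2 and 68.7 without NaPr and had no peak with it, a change of -70.6 ± 8.87 points (SE, adjusted p = 0.0053). At ENTPD8 (chr9:137437635-137438378), an ecto-nucleotidase, the ranks were 64.4, 58.7 and 67.8 without and no peak with NaPr. SLC48A1, a heme transporter, fell by 60.6 points, SEMA3B, a secreted semaphorin, by 58.4, ASB2, an adapter of a ubiquitin ligase, by 57.4, IQSEC1, an exchange factor for ARF6, by 56.4 and RAPGEF3, the cAMP sensor EPAC1, by 56.1. SH3RF2, DHRS3, a retinaldehyde reductase, and ACVR1, a type I receptor for bone morphogenetic proteins, fell by 55.7 to 55.8 points. Each of the 20 named NaPr changes missed 0.05 when at least 1 library was left out.

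Of the 3870 CpG-poor promoters tested with both compounds, 120 were higher in both and 149 lower in both. The first number is 64.5% of the 186 NaPr rises and 15.4% of the 782 NaBu rises, and the second is 59.1% of the 252 NaPr falls and 19.4% of the 768 NaBu falls among regions tested in both. Over all 83651 regions tested in both, the shares were 65.9% and 16.8% for rises and 56.9% and 18.6% for falls, close to those of the CpG-poor promoters. The 2 experiments used separate untreated libraries and different doses, so the changes are set side by side and their sizes were not compared. In opposite directions, 5 were higher with NaPr and lower with NaBu, namely C1GALT1, DMPK, LIME1, RBM47 and RETREG1, and 6 the reverse, namely HTR3A, IGSF9B, LCK, PPP1R32, PRICKLE3 and VSNL1, which are named here after their values were seen. With NaBu the calls at C1GALT1, RETREG1, PRICKLE3 and VSNL1 were lost when 1 library was left out, and the NaBu sign turned under an alternative at HTR3A, PRICKLE3 and VSNL1, as did the NaPr sign at LIME1. Several changes were small, as for LCK, a kinase of T cells, at -8.61 points with NaPr and 4.36 with NaBu, while RBM47, an RNA-binding protein of gut epithelium, was at 13.8 and -19.6.

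The shared rises were led by CHRNA3, C15orf39 and TCP11X2. The CHRNA3 region (chr15:78619378-78619810, 100 bp from a start), at a nicotinic receptor subunit, ranked 34.6, 48.9 and 57.0 with NaPr, from no peak, and 59.3, 67.6 and 65.6 with NaBu, from 0, 0 and 26.0. C15orf39 ranked 48.4, 0 and 50.01 without and 79.7, 72.3 and 79.2 with NaPr, which was at the edge of the threshold (adjusted p = 0.0497), against its rise from no peak with NaBu. TCP11X2, which has near-identical copies on the X chromosome, so that its reads are uncertain, had no peak without either compound. Its ranks were 59.98, 61.3 and 41.1 with NaPr and 48.1, 33.0 and 48.4 with NaBu. SPANXB1, a cancer-testis gene with the same uncertainty, rose by 43.0 and 60.8 points with NaPr and NaBu, PLCH1, a phospholipase C, by 49.6 and 42.0, and BZW2, a regulator of translation initiation, by 49.9 and 37.7.

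The shared falls were led by IQSEC1, SEMA3B and ACVR1. The IQSEC1 region (chr3:13015620-13016691, over a UTR exon) ranked 57.1, 69.2 and 43.0 without NaPr and 55.02, 52.5 and 58.3 without NaBu and had no peak in any of the 6 treated libraries. SEMA3B (chr3:50269647-50269911) went from 54.3, 63.2 and 57.8 to no peak with NaPr and from 53.4, 65.2 and 57.4 to 21.6, 0 and 0 with NaBu. ACVR1 (chr2:157837827-157838373) kept a peak in 1 of 3 treated libraries with each compound. ASB2 fell by 57.4 points with NaPr and 48.8 with NaBu, PRMT1, an arginine methyltransferase, by 52.2 and 48.4, and F2RL3, a thrombin receptor, by 46.3 and 48.9.

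**Figure D4:**
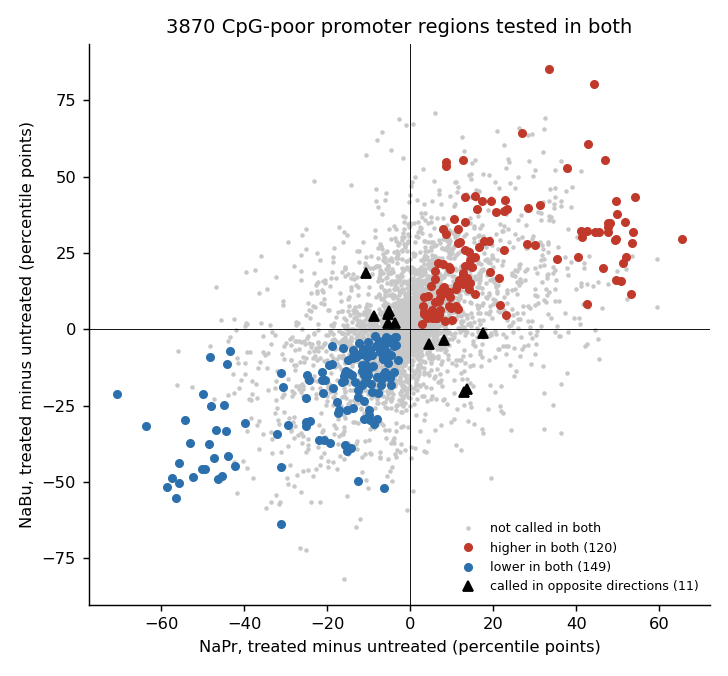
Change in mean percentile rank (treated minus untreated, percentile points) with NaPr (horizontal) and NaBu (vertical) for the 3870 CpG-poor promoter regions tested in both experiments, 1 point a region. Coloured circles are the 120 regions called higher and the 149 called lower in both, triangles the 11 called in opposite directions, and grey points all others.

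PGLYRP2 was among the shared rises too, with ranks of 39.9, 51.4 and 41.4 without and 77.8, 81.0 and 74.2 with NaPr, a change of 33.4 ± 5.03 points (adjusted p = 0.0086). Among the antimicrobial and peptidoglycan recognition genes, 6 of 18 tested regions rose and 2 fell with NaBu, beside 19.7% and 17.2% of all regions, and the median change was 11.7 points against 0.70 over all regions. The rises were at PGLYRP2, PGLYRP4 (46.3 ± 5.70), a further peptidoglycan recognition protein, DEFB1, a beta-defensin of epithelia (40.9 ± 7.69), LTF, lactoferrin (40.7 ± 5.85), CAMP, the cathelicidin precursor (24.2 ± 4.95), and LCN2, lipocalin 2 (18.3 ± 3.62). PGLYRP4, DEFB1 and that LTF region had no peak in untreated libraries. The 2 falls were at another region of LTF and another region of LCN2 (-8.06 ± 2.38). The call at this falling LCN2 region was lost when 1 library was left out, and that at CAMP in the highest 50000 intervals of each library. With NaPr, PGLYRP2, LTF and SLPI rose (12.5%) and BPI fell (4.17%), of 24 tested, beside 4.54% and 3.97% of all regions. The list's median change with NaPr was -0.56 points.

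LTF also had a region that fell, so 2 regions assigned to different CpG-poor starts of the gene changed in opposite directions with NaBu. The region over 1 alternative start (chr3:46484735-46485683) ranked 76.6, 76.9 and 79.4 without and 47.3, 16.4 and 0 with NaBu, a change of -56.4 ± 10.8 points (adjusted p = 0.0061). The other, 327 bp from a second start (chr3:46462306-46463344), had no peak without NaBu and ranked 46.4, 41.6 and 34.2 with it, and it rose with NaPr as well, from 35.0, 42.8 and 31.7 to 70.0, 67.0 and 66.7 (adjusted p = 0.021). Of 319 genes with 2 or more called CpG-poor regions with NaBu, 76 had rises alone, 143 falls alone and 100 both (31.3%), beside 30.7% of the 693 such genes among CpG-richer promoters.

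KRT8 is an example with 6 CpG-poor regions, shown after their values were seen. The region over its canonical start (chr12:52904740-52905661) ranked 93.0, 89.8 and 92.2 without and 95.6, 94.6 and 95.8 with NaBu and was called higher (adjusted p = 0.014). This call was lost when 1 library was left out (highest adjusted p = 0.064), and its sign turned with scaled summit pileup, to -0.17 on the log2 scale. The region over an alternative start (chr12:52906015-52906813) ranked 89.3, 90.3 and 91.0 without and 17.2, 44.7 and 45.5 with NaBu, a change of -54.4 ± 7.30 points (adjusted p = 0.0016). The next one (chr12:52906972-52908676) fell with both compounds, from 85.5, 84.6 and 89.6 to 70.3, 72.0 and 66.3 with NaBu and from 83.2, 83.3 and 84.3 to 72.9, 62.6 and 67.7 with NaPr. Of 29 keratin regions tested with NaBu 1 rose (3.45%) and 8 fell (27.6%), and the rise was that at the canonical start of KRT8. Over all regions the shares were 19.7% and 17.2%, and over CpG-poor promoters 17.7% and 22.3%. Several of the falls were at KRT8 itself, so the keratin regions are not independent. Of 24 tested with NaPr 2 rose (8.33%), at KRT16 and KRT23, and 4 fell (16.7%), 1 at KRT71 and 3 at KRT8. Over all regions 4.54% rose and 3.97% fell with NaPr.

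Among 39 tested regions of intestinal epithelium genes, 4 rose (10.3%) and 10 fell (25.6%) with NaBu, with a median change of -4.53 points. Over all regions tested the shares were 19.7% and 17.2%, and over CpG-poor promoters 17.7% and 22.3%. TFF3, a trefoil peptide of goblet cells, fell by 28.6 points, TSPAN8, a tetraspanin, fell by 17.9, and the 3 called regions of CDHR2, a brush border protocadherin, fell by 31.1, 36.2 and 45.7. PHGR1 went from ranks of 59.9, 66.6 and 55.3 to no peak. The rises were at FCGBP, a mucus protein (42.9 ± 7.82), MYO1A, a brush border myosin (11.9 ± 3.98), CEACAM5, an adhesion molecule (3.58 ± 0.477), and the canonical start of HNF4A (1.96 ± 0.530), which turned sign with scaled pileup. The calls at MYO1A and at this HNF4A region were lost when 1 library was left out, and those at CDHR2 (the largest of its falls), MYO1A, CEACAM5 and HNF4A when regions were ranked by fold enrichment. A second HNF4A region fell by 28.2 points, a call lost in the highest 50000 intervals of each library. With NaPr 1 of 28 rose, at CEACAM5, and 1 fell, at APOA1 (3.57% each, beside 4.54% higher and 3.97% lower over all regions).

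Cornified envelope and S100 genes, which serve skin and other barriers, gave 2 rises and 14 falls among 35 tested regions with NaBu. These and the shares that follow are read beside the 19.7% higher and 17.2% lower of all regions with NaBu (17.7% and 22.3% of CpG-poor promoters) and the 4.54% and 3.97% with NaPr. The rises were at LCE3A and KRTAP19-1, and the falls were at S100A4, S100A10, S100A16 and hair keratin-associated proteins such as KRTAP16-1 (-59.1 ± 6.64) and KRTAP3-3 (-58.5 ± 5.75). The calls at S100A4, LCE3A and 1 of 2 regions of S100A16 were lost when 1 library was left out and by fold ranking, and that at S100A10 by fold ranking. Many KRTAP genes have close copies, so reads may be split among them. With NaPr 1 rose, at S100A16 (3.23 points), and 5 fell of 49, among them another region of S100A16 (-20.6 points). Genes of xenobiotic and steroid metabolism gave 17 rises (20.2%) and 30 falls (35.7%) of 84 with NaBu and 3 and 4 of 72 with NaPr. A region of ALDH1A1, a retinaldehyde dehydrogenase, rose with NaBu from 0, 31.7 and 0 to 70.5, 73.8 and 68.2. Another region of ALDH1A1 was called lower with NaBu (-18.7 points, limma, adjusted p = 0.015). ABCB4, a phospholipid transporter, rose by 51.2 points with NaPr and 21.7 with NaBu. SULT1C3, a sulfotransferase, went from 52.9, 50 and 58.8 to no peak with NaBu.

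Solute carriers gave 16 rises (12.0%) and 38 falls (28.6%) of 133 tested regions with NaBu and 1 and 11 of 143 with NaPr. The largest fall after SLC1A5 was at SLC52A2, a riboflavin transporter, from 64.1, 59.8 and 67.1 to no peak with NaBu, and it fell by 31.1 points with NaPr. The single NaPr rise was at SLC11A2, an iron transporter. Cytokines, chemokines and their receptors gave 9 rises (10.2%) and 20 falls (22.7%) of 88 with NaBu, with rises at IL1RAP (43.0 ± 6.14) and CCL2 (24.7 ± 5.84) and falls at IL18 (-29.8 and -16.2), IL10 (-33.2) and IL4R (-27.2). With NaPr 3 rose, at IL6, IL6R and IFNL2, and 3 fell, at TNFRSF1A, IL23A and CCR3, of 93. Serine proteases and serpins gave 11 (19.6%) and 13 (23.2%) of 56 with NaBu and 1 and 6 of 58 with NaPr, where KLK4 rose, and TMPRSS5 rose by 61.9 ± 5.84 points with NaBu while PRSS27 fell by 49.7.

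Ion channels gave 16 rises (18.2%) and 18 falls (20.5%) of 88 with NaBu, near the shares of all CpG-poor promoters, and 2 and 8 of 83 with NaPr, where ANO1 and AQP1 rose. CACNA1D, a calcium channel, fell from 68.9, 76.8 and 73.1 to 0, 33.0 and 0 with NaBu. A region of SCNN1A, a subunit of the epithelial sodium channel, fell from 86.0, 89.4 and 89.1 to 38.8, 44.95 and 29.6. Of its other regions called with NaBu, one was lower (-42.8 points) and one higher (30.4 points, limma, adjusted p = 0.0014 and 0.0086). Cadherins, claudins and CEACAMs gave 8 and 8 of 35 with NaBu (22.9% each), led by a rise of 52.9 ± 5.02 points at CDH4, and 2 and 3 of 36 with NaPr. Integrins, laminins and collagens gave 9 (16.1%) and 13 (23.2%) of 56 with NaBu and 2 and 6 of 51 with NaPr. LAMA2, a laminin of basement membranes, rose with both compounds, from 30.4, 0 and 0 to 61.5, 62.6 and 65.7 with NaPr and by 11.5 ± 1.19 points with NaBu, and COL4A2, a basement membrane collagen, fell by 47.9 and 25.1 points. Ranked by fold enrichment, the NaBu change at LAMA2 was 0.27 points (adjusted p = 0.94) and the NaBu call at COL4A2 was lost (adjusted p = 0.076). Olfactory receptors, the odorant receptors of the nose, gave 2 (11.8%) and 3 (17.6%) of 17 with NaBu, and 0 and 1 of 35 with NaPr.

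**Figure D5:**
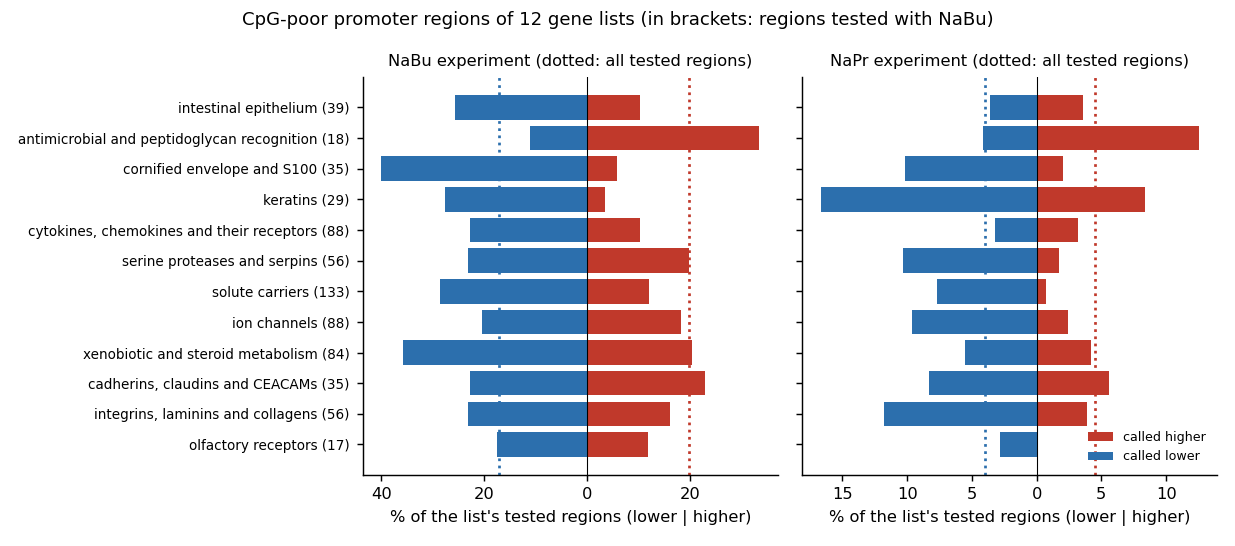
Share of the tested CpG-poor promoter regions of each of 12 gene lists called higher (right of 0) or lower (left of 0), in percent, with NaBu (left panel) and NaPr (right panel, another scale); dotted lines give the shares over all tested regions and brackets the number tested with NaBu. The antimicrobial list has 6 rises against 2 falls of 18 with NaBu, and the cornified envelope and S100 list 2 against 14 of 35.

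Of the regions at markers of other cell types, COL1A2, a fibrillar collagen gene of fibroblasts, ranked 66.5, 76.2 and 66.0 without and 91.5, 89.7 and 91.4 with NaBu, a rise of 21.3 ± 2.73 points (adjusted p = 0.0013). SYT1, a synaptic vesicle protein, rose by 3.23 ± 0.460 and CD14, a monocyte receptor, fell by 2.99, a call lost when 1 library was left out (highest adjusted p = 0.097). The fibroblast genes COL1A1, PDGFRA and DCN and the immune gene PTPRC had no peak over the canonical start in any library. COL1A1 did have a CpG-poor promoter region that was not over that start and was called higher with NaBu. Its mean rank went from 87.3 to 94.6, a change of 7.31 ± 0.870 points (limma, adjusted p = 0.0010).

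The AP-1 string was found at 34 of the 223 members that rose with NaPr (15.3%), at 28 of the 295 that fell (9.49%) and at 10.4% of those not called. With NaBu the shares were 11.7%, 10.0% and 10.6%. CCAAT was found at 37.7%, 28.1% and 30.0% with NaPr and at 31.2%, 29.7% and 32.5% with NaBu. TTTATNG, a CDX string, was found at 7.49% of the NaBu rises, 11.4% of the falls and 10.6% of the rest. These shares were not tested.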

How the data were processed

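Chromatin accessibility was measured by Omni-ATAC in 12 SW480 libraries, 3 untreated and 3 treated for each compound, and the mouse CT26 libraries of the series were not used here. Per the submitters' processing notes and the study's methods, the authors trimmed reads (bcl2fastq 2.17.1, cutadapt 1.9.1), aligned them with Bowtie2 2.3.1 to GRCh38 and called peaks in each library with MACS2 2.1.0. The deposited lists give each summit's fold enrichment (signal), a ratio to the local background, and its −log10 p and −log10 q. They hold no read totals, so no count test was possible, and the study's DiffBind analysis of reads was not repeated here. The lists hold at most 299463 summits each, and the weakest peak listed differed between libraries. The lists hold no pileup. The number of tags at each summit and its local background were solved from fold enrichment and −log10 p, for all lines of each list. A library's background pileup was taken from the lowest of these local backgrounds.

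Intervals were merged where they overlapped by 1 bp or more, and starts were taken from GENCODE 44. Regions with a peak in 2 or more of an experiment's 6 libraries were ranked within each library (0 to 100) and treated and untreated ranks were compared with limma 3.58.1 in R 4.3.3, untreated as reference, with Benjamini-Hochberg adjustment over all tested regions and a threshold of 0.05. The scripts were tested on simulated data. The promoters and the gene lists were chosen with earlier results of these data known. Named regions are the 10 largest called rises and falls per experiment, 1 region per gene, the 6 largest shared rises and falls, the 10 highest mean ranks and the 3 largest changes per list, and others are marked as chosen after their values were seen. Alternatives were fold ranking, pileup scaling, shorter lists, other filters and member definitions, a replicate block and leaving out libraries. Further called members of a list were named after their values were seen. In all, 1 region among the named falls, 1 marker gene and 2 upstream sequences are not reported here.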

Additional observations from a re-analysis of the deposited data

How the results depend on the processing

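With NaBu, the share of CpG-poor promoters called higher was 17.7% and ranged from 15.6% to 17.7% when 1 library was left out, and the share called lower from 18.8% to 20.4% beside 22.3%. Ranking by fold enrichment gave 11.3% higher. A gained peak (listed in all treated libraries and absent without treatment) was found at 6.30% to 7.33%, and the reverse at 5.88% to 6.80%, with 1 library left out, at 7.48% for the reverse in the highest 50000 intervals of each library, and at 2.90% for the reverse among regions over the start. With NaPr, the shares called higher and lower were 4.23% and 5.59%, and 1.40% and 1.25% by fold ranking, 9.97% and 1.41% with pileup scaled by background, 9.20% and 23.0% with pileup scaled by the library median, 7.56% and 12.1% in the highest 50000 intervals, 1.92% and 2.60% for a peak in 1 or more libraries, and 6.39% and 8.81% for 4 or more. Leaving out 1 library gave 0% to 1.67% higher and 0% to 1.61% lower, and leaving out replicate 1 of both groups, which was chosen after seeing the data, gave 0% and 0% by limma, with 1340 members at an unadjusted p under 0.05. A gained peak was then found at 3.08% to 3.69% with 1 library left out and a lost peak at 2.67% to 3.65%, or 3.47% in the highest 50000 intervals.

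Whether replicate numbers pair the libraries cannot be told from correlations this weak. Same-numbered deviations correlated at 0.0119, 0.0124 and 0.0463 with NaPr and at 0.0222, 0.00709 and 0.0125 with NaBu. Each untreated replicate correlated best with its same-numbered treated replicate, except NaPr untreated replicate 2, which correlated best with treated replicate 1 (0.01905). With a replicate block, 0.360% were higher and 0.322% lower with NaPr, and 922 were higher and 1158 lower with NaBu. Of the 62 NaBu calls at regions named by the rule, 1 (RLBP1) was lost with 1 library left out, 0 with the block (limma) and 8 by fold ranking. Of 41 further NaBu calls that were checked in this way, 13, 5 and 14 were lost. In the highest 50000 intervals of each library, 33 of the NaBu calls named by the rule held. There 6 were lost, at ACVR1, CHRNA3, ITGB6, SLC52A2, TMPRSS5 and ZNF414, and the rest could not be tested. Of the further NaBu calls 31 held there and 2 were lost, at CAMP and the second HNF4A region. All 33 NaPr calls named by the rule and 34 others were lost with at least 1 library left out, 32 and 31 with the block and 24 and 26 by fold ranking. Signs turned at the KRT8 canonical start (-0.17 log2 with both pileup scalings), HNF4A (-0.0396 and -0.0354), VSNL1 (-0.0983 and -0.0942) and PRICKLE3 (-0.0306 and -0.0265) with NaBu, at LIME1 with NaPr (-0.0529, median scaling), and at HTR3A with NaBu by fold ranking (-2.70 points). Depth differed between libraries, and a weak peak missing from a shallow list cannot be told from closed chromatin.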
